A study of Mus musculus with 6 samples.

Results

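Fibroblast growth factor (FGF) ligands and receptors were examined in embryonic submandibular glands (eSMGs) that were left untreated or exposed to AMD3100, an antagonist of the chemokine receptor CXCR4. The genes were chosen by symbol, as 6 ligands (Fgf1, Fgf2, Fgf7, Fgf9, Fgf10 and Fgf18) and 4 receptors (Fgfr1, Fgfr2, Fgfr3 and Fgfrl1), and all 10 were found among the 23260 genes of the count tables. The glands came from ICR mouse embryos at embryonic day 14 (E14) and were cultured as explants, either in plain medium (control, 3 libraries) or with 50 µM AMD3100 (3 libraries), and were collected at 6 h. Each library was made from a tube that pooled up to 10 glands, epithelium, mesenchyme, vessels and nerves together, and the labels name no transgene or engineered allele. The study's methods describe its experiments in general as independent triplicates, while the labels do not say how the 3 tubes of a group differed in culture or litter, and p-values measure the spread between these tubes.

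FGF signals are secreted or matrix-bound proteins that bring receptor tyrosine kinases together at the cell surface, with heparan sulfate chains as part of the complex, and the receptors then act through the Ras and MAP kinase cascade. In branching glands, Fgf10 and Fgf7 are made by the mesenchyme and bind the epithelial splice form of Fgfr2, and mice without Fgf10 or this form of Fgfr2 lack salivary glands. Fgf1 binds all of the main FGF receptors, Fgf9 and Fgf18 act chiefly on the mesenchymal splice forms, and Fgfrl1 has the outside part of a receptor without the kinase.

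The main measurement was the number of 3′ mRNA reads counted on each gene, and library totals ranged from 9051595 to 14393031 counts. Levels are given as CPM (counts scaled to the library total) after TMM normalization, which scales each library by a factor that evens out the bulk of the genes. As a 3′ library gives a read per transcript whatever its length, levels of different genes can be set side by side without division by length, although the end of a transcript may still be primed with unequal ease. The splice forms of Fgfr2 share their 3′ end and were not told apart. A level of 3 counts, taken as the floor, stood at 0.173 to 0.368 CPM on this scale, and this floor covers counting error only because PCR copies are not independent molecules.

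Before any comparison, the libraries had to be set against each other. Replicate 3 of both groups stood apart from the other 4 libraries, with 44.2% of the 13610 genes tested either above or below all 4 others in both. Summed over 12 skeletal muscle genes, the level was 2198 CPM in control replicate 3 and 2925 CPM in AMD3100 replicate 3, against 195 to 362 CPM in the other 4 libraries. Summed over 20 mesenchyme genes, it was 2838 and 2476 CPM in the replicate 3 libraries and 5586 to 5708 CPM in the other 4. Markers of the labelled tissue were present in every library. Krt15, an epithelial keratin, had 888 to 2472 CPM, Cdh1, the epithelial cadherin, had 211 to 507 CPM and Col3a1, a mesenchymal collagen, had 406 to 1421 CPM. No marker of the epithelium or mesenchyme lists was at 0 in all libraries. In these bulk samples, fewer cells of a type and less RNA per cell cannot be told apart.

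None of the 9 members with counts differed between AMD3100-treated and control eSMGs beyond the spread of the tubes. With edgeR's quasi-likelihood test and Benjamini-Hochberg adjustment over 13610 genes, 0 of the 9 members tested had an adjusted p-value under 0.05, and the background was 0% of all genes. At an unadjusted p under 0.05 the members also counted 0, where 228 of all genes stood, and DESeq2 called 0 members. The study's thresholds, an unadjusted p under 0.05 with a fold change over 1.5, were passed by 0 of the 9 against 1.68% of all genes. This fold cut is that of the study's text, while its figure captions give a higher one for the same genes, which was not used here. Fgf2, the remaining member, had no counts and could not be tested. The median log2 fold change of the 9 members was 0.02, with 5 above 0 and 4 below, and the median of all genes was also 0.02. The design limits what could be seen, since the biological coefficient of variation was 0.579. The exact permutation test used below for ratios cannot give a two-sided p below 0.1 with 3 against 3 libraries, so that no ratio could reach 0.05.

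Of the ligands, Fgf10 was the most abundant. It lies on chromosome 13 (GRCm38.p6, chr13:118714699-118792573, plus strand) and had 111, 79.2 and 52.5 CPM in control replicates 1 to 3 and 88.2, 91.0 and 44.8 CPM in AMD3100 replicates 1 to 3. The highest and the second-lowest of these values were both in control eSMGs, so that the groups overlapped, and replicate 3 was the lowest library of each group. The group means were 81.0 ± 29.5 CPM in control and 74.7 ± 25.9 CPM in AMD3100-treated eSMGs (SD, n = 3). The log2 fold change was -0.12 (SE 0.39, unadjusted p = 0.772, adjusted p = 1.0 by edgeR). Its 95% interval, from -1.0 to 0.77, spans a range from a fold of 0.500 to a fold of 1.70, so that a moderate difference in either direction was not detectable with these tubes.

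Fgf7, the closest relative of Fgf10 in receptor preference, was lower, with Fgf10 at 4.01 to 14.5 times its counts within a library. It lies on chromosome 2 (chr2:126034658-126091185, plus strand) and had 8.58, 5.46 and 8.78 CPM in control and 7.32, 12.1 and 11.2 CPM in AMD3100-treated eSMGs. AMD3100 replicate 1 lay among the control values while the 2 others lay above them. This gave a log2 fold change of 0.42 (SE 0.46, unadjusted p = 0.382, adjusted p = 1.0 by edgeR), with a 95% interval from -0.62 to 1.46.

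Fgf9 and Fgf18, both known from epithelial and mesenchymal exchange in other branching organs, were at similar low levels. Fgf9 (chr14:58070671-58112854, plus strand) had 4.64, 12 and 4.59 CPM in control and 4.61, 11.4 and 3.07 CPM in AMD3100-treated eSMGs. Replicate 2 was the highest library of both groups, far above the other libraries of its group, and the groups overlapped. Fgf18 (chr11:33116970-33147400, minus strand) had 5.43, 6.12 and 5.39 CPM in control and 9.10, 5.62 and 2.33 CPM in AMD3100-treated eSMGs. The control values lay close together, with AMD3100 replicate 2 among them, replicate 1 above and replicate 3 below. The log2 fold changes were -0.15 for Fgf9 (SE 0.68, unadjusted p = 0.827) and 0.02 for Fgf18 (SE 0.63, unadjusted p = 0.979), with adjusted p-values of 1.0 by edgeR. Fgf18 rested on as few as 19 counts in AMD3100 replicate 3.

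Fgf1, a ligand without a classical secretion signal that binds all main receptors, was the only member whose groups did not overlap. The level was 2.45, 4.01 and 2.69 CPM in control and 12.7, 5.35 and 4.30 CPM in AMD3100-treated eSMGs. The lowest treated library was only slightly above the highest control library, and most of the difference came from AMD3100 replicate 1, with 220 counts where the other 5 libraries had 27 to 58. The share of genes with all 3 treated libraries above all 3 controls was 3.28%, against 1 of the 9 members. Its log2 fold change was 1.29 (SE 0.66, unadjusted p = 0.0850, adjusted p = 1.0 by edgeR), with a 95% interval from -0.22 to 2.79. Without AMD3100 replicate 1 it was 0.66. With the replicate number as a block it was 1.14 (unadjusted p = 0.137). Fgf1 lies on chromosome 18 inside the interval of a larger gene, Arhgap26, but no exon of another gene covers its last exon in the annotation searched. Arhgap26 itself had 25.8, 17.7 and 11.5 CPM in control and 10.3, 8.57 and 18.2 CPM in AMD3100-treated eSMGs, and was not highest in the library where Fgf1 was.

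**Figure D1:**
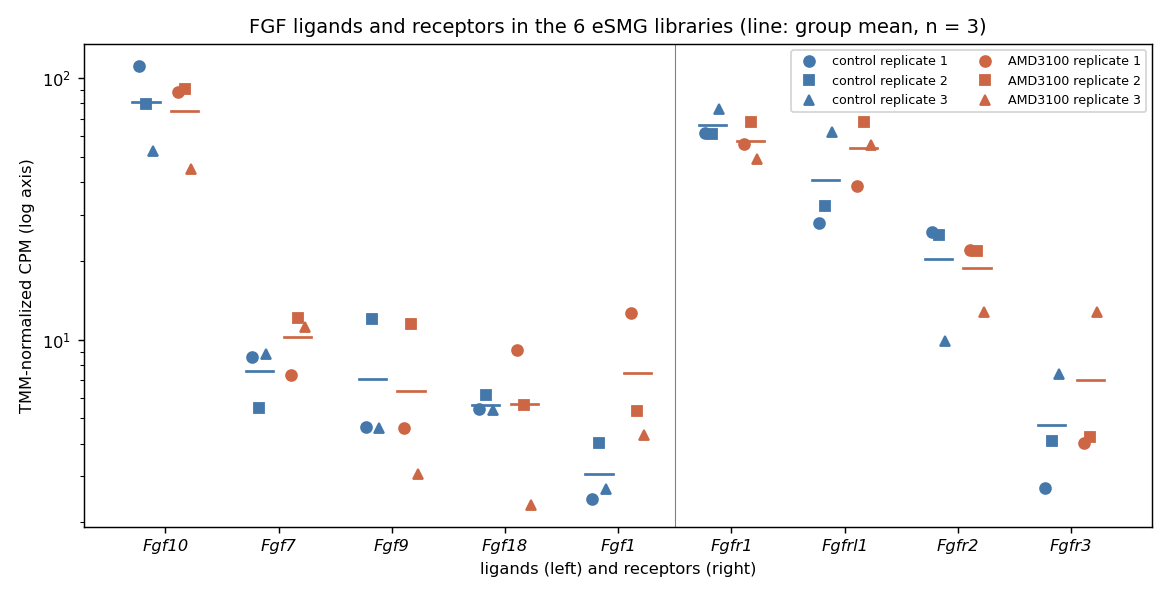
Level of each FGF ligand (left of the line) and receptor (right) with counts, in TMM-normalized CPM on a log axis, with a point for each of the 3 control (blue) and 3 AMD3100-treated (orange) libraries and a bar at each group mean. Fgf10 spans 44.8 to 111 CPM with overlapping groups, and Fgf1 alone has all treated points above all control points, by a wide gap in AMD3100 replicate 1 only.

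Fgf2 was listed at 0 counts in every library. Fgf2 is a matrix-bound ligand, and its gene (chr3:37348477-37410106, plus strand) shares its 3′ part with Nudt6 (chr3:37404982-37420242, minus strand), an antisense gene that encodes a Nudix hydrolase. The intervals overlap over 5125 bases (chr3:37404982-37410106), which hold the end of Fgf2 from which a 3′ library would read. The strand setting of the authors' counting is not given in the sources used here, and a 0 at such a site cannot be read as absence of the transcript. Nudt6 had 92, 97 and 27 counts in control and 308, 252 and 37 counts in AMD3100-treated eSMGs.

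In CPM, Nudt6 stood at 8.05, 7.07 and 2.69 in control and 17.7, 23.2 and 4.54 in AMD3100-treated eSMGs. It was higher in the treated library of all 3 same-numbered pairs and lowest in replicate 3 of both groups, so that the groups overlapped. The labels do not say that same-numbered tubes belong together. The share of all genes with the same direction in all 3 pairs was not counted, here and below. Its log2 fold change was 1.35 (SE 0.66, unadjusted p = 0.0725, adjusted p = 1.0 by edgeR). With the replicate number as a block it was 1.22 (unadjusted p = 0.0144, adjusted p = 0.654). Whether any of these reads came from Fgf2 was not tested.

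Receptor levels spanned a similar range. Fgfr1, a receptor expressed widely in mesenchyme, had 61.8, 61.0 and 76.1 CPM in control and 56.0, 68.1 and 49 CPM in AMD3100-treated eSMGs. It was the steadiest member, with its highest library at 1.55 times its lowest, and its groups overlapped. The means were 66.3 ± 8.5 CPM in control and 57.7 ± 9.67 CPM in AMD3100-treated eSMGs (SD, n = 3). With a log2 fold change of -0.20 (SE 0.28, unadjusted p = 0.489, adjusted p = 1.0 by edgeR), its 95% interval from -0.83 to 0.43 was the narrowest of the 9. Fgfr1 lies at chr8:25518759-25575718.

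Fgfr2, the receptor of Fgf10 and Fgf7 in the epithelium, had 25.8, 25.1 and 9.87 CPM in control and 22, 21.8 and 12.8 CPM in AMD3100-treated eSMGs. The libraries split by replicate number, not by treatment, with the 4 libraries of replicates 1 and 2 within 21.8 to 25.8 CPM and both replicate 3 libraries well below them. In edgeR's fit the log2 fold change was -0.10 (SE 0.45, unadjusted p = 0.821, adjusted p = 1.0 by edgeR), with a 95% interval from -1.12 to 0.92. Fgfr2 lies at chr7:130162451-130266808 on the minus strand.

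Fgfr3, a receptor known mainly from cartilage and stratified epithelium, had 2.71, 4.08 and 7.38 CPM in control and 4.03, 4.24 and 12.8 CPM in AMD3100-treated eSMGs. It was the only member with both replicate 3 libraries above the other 4. It was higher in the treated library of 3 of 3 same-numbered pairs, for which no share over all genes was counted. The log2 fold change was 0.57 (SE 0.70, unadjusted p = 0.440, adjusted p = 1.0 by edgeR). Leaving out AMD3100 replicate 3 turned it to -0.21. Fgfr3 lies at chr5:33721724-33737068 on the plus strand.

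Fgfrl1, the receptor-like protein without a kinase, had 27.8, 32.4 and 62.1 CPM in control and 38.8, 68.2 and 55.5 CPM in AMD3100-treated eSMGs. In replicates 1 and 2 both treated libraries were above both controls, whereas in replicate 3 the control was the higher library. The log2 fold change over all 6 libraries was 0.41 (SE 0.39, unadjusted p = 0.320, adjusted p = 1.0 by edgeR). With replicate 3 of both groups left out it was 0.82 (unadjusted p = 0.0241, adjusted p = 0.811 by edgeR), and without control replicate 3 it was 0.85 (unadjusted p = 0.0401). Each passed the study's thresholds as its text gives them, but not the higher fold cut of its figure captions. In those fits 4.39% and 3.84% of all genes passed, with 1.91% and 2.22% passing higher as Fgfrl1 did. Fgfrl1 lies at chr5:108694229-108706950 on the plus strand.

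**Figure D2:**
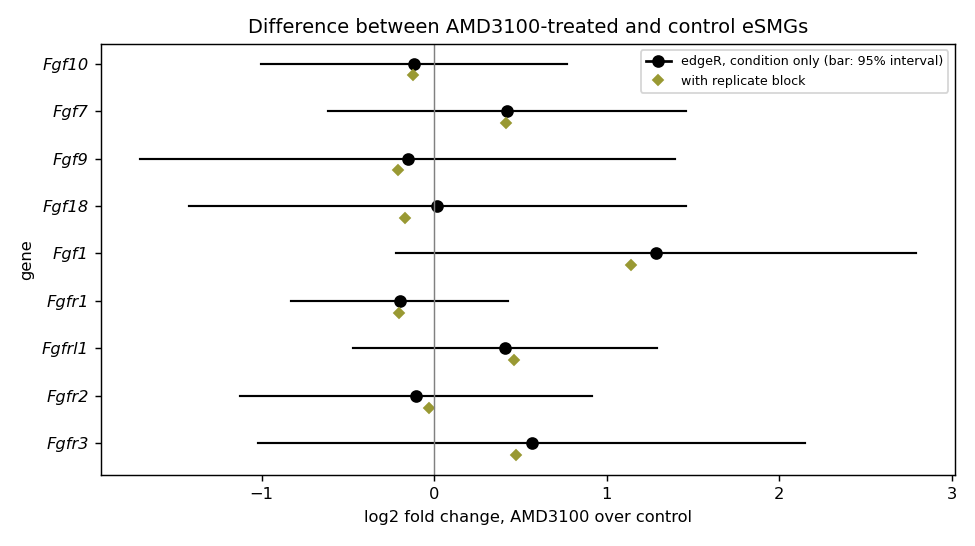
Log2 fold change of AMD3100-treated over control eSMGs for the 9 members with counts, from edgeR with condition as the only term (black, bar: 95% interval) and with the replicate number as a block (green diamonds, no bar drawn). Every interval includes 0, and Fgf1, at 1.29, lies farthest from it.

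Ordered by the mean over the 6 libraries, Fgf10 (77.8 CPM) was followed by Fgfr1 (62.0 CPM) and Fgfrl1 (47.5 CPM), then Fgfr2 (19.6 CPM), and then by Fgf7 (8.90 CPM), Fgf9 (6.73 CPM), Fgfr3 (5.87 CPM), Fgf18 (5.66 CPM) and Fgf1 (5.24 CPM). The ranges of Fgf10, Fgfr1 and Fgfrl1 overlapped, so that their order is not fixed by these libraries. Fgfrl1 and Fgfr2 did not overlap, with 27.8 CPM as the lowest value of the former and 25.8 CPM as the highest of the latter. The 5 lowest members overlapped each other, and the lowest library of Fgfr2, at 9.87 CPM, lay within the range of Fgf7.

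Ratios within a library, which do not depend on its scaling, were compared for the ligands and receptors that act together. Fgf10 over Fgfr2 was 4.31, 3.15 and 5.31 in control and 4.01, 4.18 and 3.51 in AMD3100-treated eSMGs. Although both genes were lower in replicate 3, their ratio stayed between 3.15 and 5.31 in all libraries and its groups overlapped (exact permutation test, two-sided p = 0.8). Fgfrl1 over Fgfr1 was 0.450, 0.532 and 0.817 in control and 0.692, 1.0 and 1.13 in AMD3100-treated eSMGs. The treated library was higher in each same-numbered pair, yet control replicate 3 lay above AMD3100 replicate 1 (exact permutation test, two-sided p = 0.2). The 3 other ratios, Fgf7 over Fgfr2, Fgf10 over Fgf7 and Fgfr1 over Fgfr2, had exact two-sided p-values of 0.7, 0.5 and 1.0, and after adjustment over the 5 ratios every p was 1.0.

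A split by replicate number was seen in more members than a split by treatment. Fgf10, Fgfr2, Fgf9 and Fgf18 (4 of 9) were lower in both replicate 3 libraries than in the other 4, as were 21.1% of all genes, and Fgfr3 was higher, as were 23.1%. Together these were 5 of the 9, near the 44.2% of all genes that stood apart either way. The mean of Fgf10 was 48.6 CPM in the replicate 3 libraries and 92.4 CPM in the 4 others, and that of Fgfr2 was 11.3 and 23.7 CPM. Sums over markers of other cell types moved with the same libraries. The mesenchyme sum in replicate 3 was 0.472 times that of replicates 1 and 2, and 0.532 times without Col3a1, its most abundant gene. In both replicate 3 libraries 8 of its 19 tested genes were lower than in the other 4, among them Barx1 at 0.179 times its mean in replicates 1 and 2, and 4 were higher, namely Tbx18 (4.03 times), Prrx2 (3.95 times), Osr2 (1.49 times) and Lum (1.23 times). The skeletal muscle sum was 9.06 times as high, and 8.03 times without Myog, its most abundant gene, a myogenic transcription factor with 521 and 485 CPM in the replicate 3 libraries and 9.96 to 41.1 CPM elsewhere. The macrophage and endothelium sums were 1.96 and 1.63 times as high, but 1.29 times without C1qa and 0.877 times without Egfl7, and 1 of 8 endothelium genes tested (Egfl7) was higher in both replicate 3 libraries. The epithelium sum was 1.01 times that of replicates 1 and 2 but 0.641 times without Krt15, and 11 of its 19 tested genes were lower in both replicate 3 libraries, among them Sox10 at 0.190, Krt5 at 0.238, Krt8 at 0.242 and Epcam at 0.608 times their mean in replicates 1 and 2. Fgfr2 stood at 0.478 times its mean there. The part of these cell types in the member values was not tested.

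**Figure D3:**
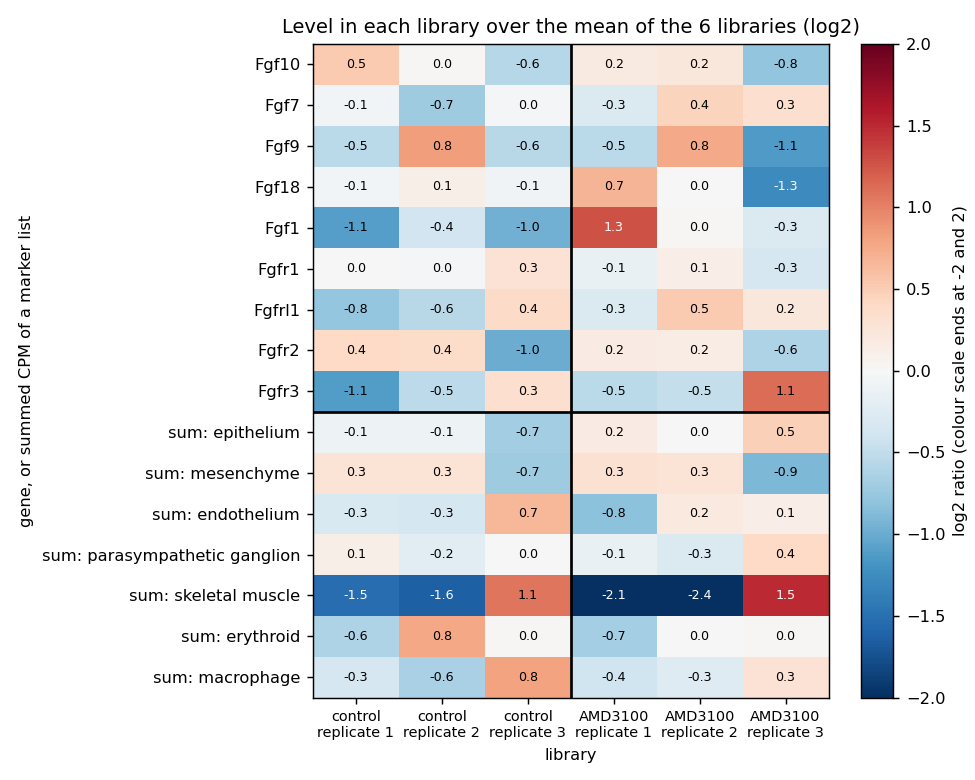
Level in each of the 6 libraries over the mean of the 6, as a log2 ratio (red higher, blue lower, numbers in the cells), for the 9 members with counts (above the line) and for the summed CPM of 7 marker lists (below it). The replicate 3 columns of both groups share low Fgf10, Fgfr2 and mesenchyme and high Fgfr3 and skeletal muscle, and only the Fgf1 and epithelium rows have all AMD3100 columns above all control columns.

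By condition, the marker lists showed 0 genes past the study's thresholds in edgeR's test. The epithelium sum was 2498, 2498 and 1647 CPM in control and 2980, 2669 and 3705 CPM in AMD3100-treated eSMGs, with all treated libraries above all controls. Krt15 made up much of this sum, with 1042, 1012 and 888 CPM in control and 1367, 1016 and 2472 CPM in AMD3100-treated eSMGs. Without Krt15, the 19 other genes had 1456, 1486 and 758 CPM in control and 1614, 1654 and 1233 CPM in AMD3100-treated eSMGs, and the groups overlapped. Of the 19 genes tested, 13 had a log2 fold change above 0 and 6 below, from -0.10 to 0.83 with a median of 0.20. Cdh1 had 337, 302 and 211 CPM in control and 344, 394 and 507 CPM in AMD3100-treated eSMGs (log2 fold change 0.55, unadjusted p = 0.108). Sox9, a progenitor transcription factor of the distal epithelium, had 299, 320 and 164 CPM in control and 352, 381 and 170 CPM in AMD3100-treated eSMGs (log2 fold change 0.20, unadjusted p = 0.622).

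With the replicate number as a block, 6 marker genes passed the study's thresholds, where 1.49% of all genes passed higher and 2.90% lower, and none had an adjusted p under 0.05. Higher in AMD3100-treated eSMGs were 3 of the 19 epithelium genes tested, namely Krt15 (log2 fold change 0.62, unadjusted p = 0.0240), the progenitor transcription factor Sox2 (0.97, unadjusted p = 0.00721) and the epithelial transcription factor Ehf (0.72, unadjusted p = 0.0396). Lower were 2 of 11 skeletal muscle genes, Myog (-1.16, unadjusted p = 0.00442) and Myod1 (-2.05, unadjusted p = 0.0312), and 1 of 19 mesenchyme genes, the transcription factor Twist1 (-0.97, unadjusted p = 0.0193). Without the block, 9 of the 11 skeletal muscle genes had a log2 fold change above 0 and 2 below, with a median of 0.30. Members past the thresholds with the block numbered 0.

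Other lists overlapped between the groups in their sums. The mesenchyme sum averaged 4690 ± 1604 CPM in control and 4590 ± 1832 CPM in AMD3100-treated eSMGs (SD, n = 3), and Col1a1 and Col1a2, its next most abundant genes, had log2 fold changes of 0.07 and -0.11. For the parasympathetic ganglion list, led by Tubb3, Stmn2 and Phox2a, the sums averaged 797 ± 90.3 and 817 ± 215 CPM. Endothelial genes, led by Egfl7 with Kdr and Pecam1 next, summed to 115 ± 49.5 CPM in control and 101 ± 34.7 CPM in AMD3100-treated eSMGs. Macrophage genes, led by C1qa, Csf1r and Lyz2, summed to 179 ± 102 and 159 ± 41.7 CPM. For skeletal muscle genes, led by Myog, Actc1 and Tnnt1, the sums averaged 965 ± 1068 CPM in control and 1119 ± 1564 CPM in AMD3100-treated eSMGs. The 9 erythroid genes tested all had log2 fold changes below 0, as had 6510 of 13610 genes, with a median of -0.44 and none past the thresholds. Their sum was 8649, 22573 and 13487 CPM in control and 8265, 13125 and 13466 CPM in AMD3100-treated eSMGs. Control replicate 2 was thus far above all other libraries, and the 9 genes share these libraries and are not independent. The erythroid genes were led by Hba-a1, at 4229 to 11999 CPM and highest in control replicate 2. Next were Hbb-bs and Hbb-b1, a pair of closely related globin genes with nearly equal counts, which may not be told apart by 3′ reads. Whether blood, muscle or epithelial content bears on any member was not tested.

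The other genes of the FGF pathway were taken from 5 lists with 76 genes in all, of which 60 were tested. None had an adjusted p-value under 0.05, 2 (Dusp6 and Hs6st2) passed the study's thresholds lower in AMD3100-treated eSMGs, where 1.28% of all genes did, and 0 passed them higher, where 0.397% did. Of Dusp6 and Hs6st2, only Hs6st2 also reached the higher fold cut of the study's captions. The median log2 fold change of the 60 genes was 0.02, the same as that of all genes to this precision. With the replicate number as a block, 5 passed lower and 1 passed higher, against 2.90% and 1.49% of all genes, and 0 had an adjusted p under 0.05 in either fit.

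Among 16 other FGF ligands, 6 (Fgf3, Fgf8, Fgf15, Fgf17, Fgf20 and Fgf22) were at 0 in all libraries, which allows up to 3 counts in each, and only 3 were tested. Fgf13 and Fgf12, which belong to the FGF homologous factors that stay inside the cell, had 11.9 ± 5.37 and 9.77 ± 6.20 CPM in control and 12 ± 7.06 and 8.64 ± 2.97 CPM in AMD3100-treated eSMGs (SD, n = 3). Fgf11, of the same group, had 0 to 29 counts (0 to 2.45 CPM). The other ligands of the list had at most 2.63 CPM in any library.

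Of 8 other receptors and co-receptors, 6 were tested and 0 passed the thresholds. Ncam1, a cell adhesion molecule that can bind FGF receptors, had 239 ± 59.8 CPM in control and 274 ± 46.8 CPM in AMD3100-treated eSMGs. Flrt2 had 206 ± 26.4 and 214 ± 33.7 CPM and Flrt3 44.8 ± 4.65 and 50.1 ± 8.67 CPM, both of them membrane proteins with leucine-rich repeats that associate with FGF receptors. Fgfr4, named after its values were seen, had 0.438, 0.146 and 6.88 CPM in control and 0.922, 2.67 and 10.7 CPM in AMD3100-treated eSMGs. As with Fgfr3, its high libraries were those of replicate 3. It was higher in the treated library of 3 of 3 same-numbered pairs, again with no share over all genes counted. Its log2 fold change was 0.93 (unadjusted p = 0.525), and it was 4.01 (unadjusted p = 0.0306) without control replicate 3 and -0.49 without AMD3100 replicate 3.

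The signal relay list, from the docking protein Frs2 to the MAP kinases, had 0 of its 17 tested genes past the thresholds and a median log2 fold change of 0.09. Groups did not overlap for 2 of these, 1 in each direction, where 3.28% of all genes had all treated libraries above the controls and 4.17% below. The higher was Plcg1, a phospholipase that binds activated receptors, with 0, 0.510 and 0.698 CPM in control and 2.36, 5.16 and 0.982 CPM in AMD3100-treated eSMGs (log2 fold change 2.79, unadjusted p = 0.0957), and the lower had a log2 fold change of -0.34 (unadjusted p = 0.231). The most abundant genes of the list overlapped. Mapk3, the kinase ERK1 at the end of the cascade, had 196 ± 99.1 CPM in control and 213 ± 134 CPM in AMD3100-treated eSMGs (SD, n = 3). Hras, a Ras protein, had 107 ± 26.1 and 113 ± 9.21 CPM, and Map2k2, a kinase that activates ERK, had 96 ± 26.5 and 121 ± 3.58 CPM. Frs3 was at 0 in all libraries.

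In the feedback and response list, made of genes that FGF signalling is known to induce, 1 of 11 passed the thresholds. It passed lower in AMD3100-treated eSMGs, where 1.28% of all genes did. Dusp6, a phosphatase that is induced by ERK activity and inactivates ERK, had 236, 214 and 263 CPM in control and 97.4, 187 and 132 CPM in AMD3100-treated eSMGs. Every treated library was below every control, as for 4.17% of all genes (log2 fold change -0.78, SE 0.32, unadjusted p = 0.0376, adjusted p = 1.0 by edgeR). Its log2 fold change stayed between -1.04 and -0.58 in the 15 alternative fits, and its unadjusted p was under 0.05 in 10 of them and not in 5, each of which left out a library, the highest being 0.150 without AMD3100 replicate 1. Etv1, a transcription factor related to Etv5, had all treated libraries above all controls, as for 3.28% of all genes. It had 4.11, 5.97 and 4.19 CPM in control and 9.04, 10.05 and 6.63 CPM in AMD3100-treated eSMGs (log2 fold change 0.85, unadjusted p = 0.127). Etv5, a transcription factor induced by FGF10, had 133 ± 6.44 CPM in control and 147 ± 37.1 CPM in AMD3100-treated eSMGs, and the inhibitor Spry2 had 90.7 ± 10.2 and 104 ± 23.2 CPM (SD, n = 3). The log2 fold changes of Etv5 and Spry2 were 0.15 and 0.20. Spry4, an inhibitor of the Ras pathway, had 32.7, 12.5 and 2.49 CPM in control and 6.80, 5.53 and 0.860 CPM in AMD3100-treated eSMGs. It was lower in the treated library of 3 of 3 same-numbered pairs, with no share over all genes counted, but the groups overlapped (log2 fold change -1.84, unadjusted p = 0.0838). Without control replicate 1 the log2 fold change of Spry4 was -0.77 (unadjusted p = 0.461). With the replicate number as a block its log2 fold change was -1.68 (unadjusted p = 0.00411, adjusted p = 0.457), and Dusp6 had -0.82 (unadjusted p = 0.00239, adjusted p = 0.386). In that fit 2 of the 11 passed the thresholds lower, against 2.90% of all genes.

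The heparan sulfate list, with the enzymes and core proteins of the chains that FGFs bind, had 1 of 23 genes past the thresholds. This gene passed lower in AMD3100-treated eSMGs, as did 1.28% of all genes. Hs6st2, a sulfotransferase that adds sulfate to the chains, had 39.4, 45.5 and 30.6 CPM in control and 23.2, 16.2 and 13.8 CPM in AMD3100-treated eSMGs. Its groups did not overlap (log2 fold change -1.12, SE 0.34, unadjusted p = 0.00958, adjusted p = 1.0 by edgeR), and its unadjusted p stayed under 0.05 in all 15 alternative fits, the highest being 0.0423. Hs6st2 was named for its unadjusted p, and these fits reuse the same libraries, so they are no separate support. Gpc3, a core protein anchored to the membrane, had 193, 188 and 137 CPM in control and 121, 120 and 88.0 CPM in AMD3100-treated eSMGs. Here too the groups did not overlap (log2 fold change -0.65, unadjusted p = 0.0526), and with the replicate number as a block the unadjusted p was 8.12e-04 and the adjusted p 0.235. Hs6st1, of the same enzyme family as Hs6st2, had all treated libraries above all controls, with 40.4, 44.4 and 40.2 CPM in control and 72.2, 52.4 and 58.9 CPM in AMD3100-treated eSMGs (log2 fold change 0.55, unadjusted p = 0.0720). In this list 2 of 23 genes had all treated libraries below the controls, against 4.17% of all genes, and 1 had them above, against 3.28%. With the block, Hs3st1 (log2 fold change -0.76, unadjusted p = 0.0102) and Ndst2 (0.59, unadjusted p = 0.0456), both sulfotransferases of the chains, also passed the thresholds. In that fit 3 of the 23 passed lower and 1 higher, against 2.90% and 1.49% of all genes. Over all libraries without the block, Hs3st1 had a log2 fold change of -0.73 (unadjusted p = 0.201), which was -0.16 without control replicate 3 and -1.39 without AMD3100 replicate 3. Sdc1, a syndecan of the epithelial surface, had 110 ± 20.5 and 87.2 ± 11.3 CPM and the sulfatase Sulf2 had 88.2 ± 10.7 and 89.5 ± 11.2 CPM (SD, n = 3). Over the whole list, 15 of 23 log2 fold changes were below 0, as were 6510 of 13610 over all genes. The median was -0.17, beside a median of 0.02 over all genes.

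**Figure D4:**
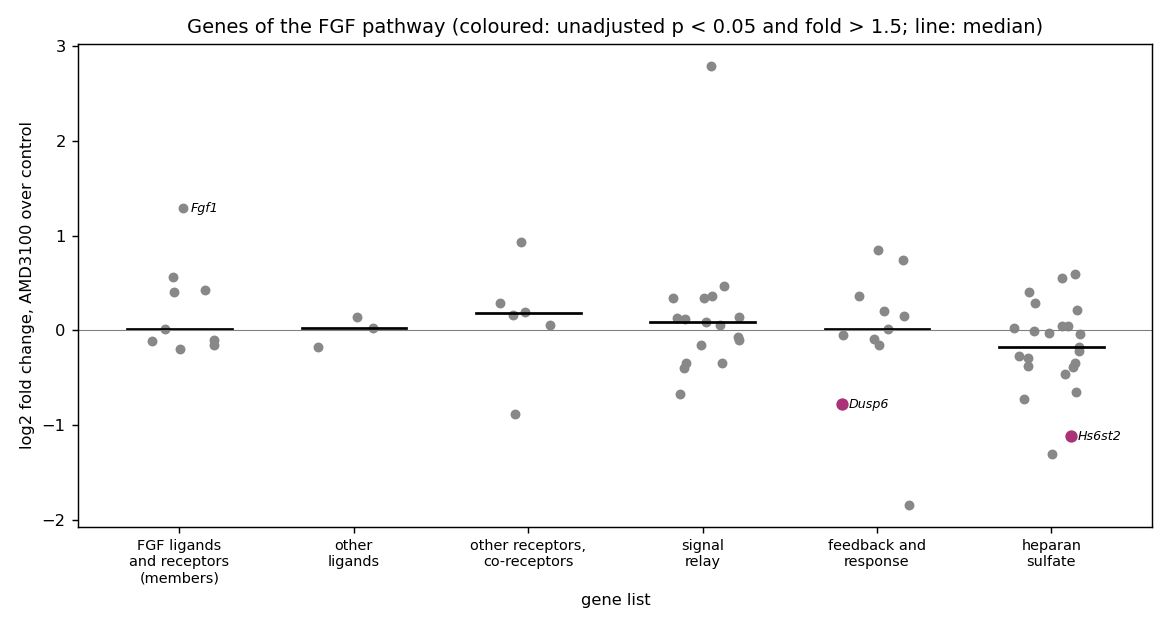
Log2 fold change of AMD3100-treated over control eSMGs for each tested gene of the FGF pathway, by list, with a line at the median of the list. The members centre on 0.02, and 2 genes of other lists passed an unadjusted p under 0.05 and a fold change over 1.5 (coloured: Dusp6 and Hs6st2), both of them below 0.

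To place the leading ligand and receptor among other genes, log2 CPM over the 6 libraries was correlated with that of the 6063 genes that had a mean of at least 20 CPM. These values share libraries and depth and are a description. Fgf10 was most like Gpr153 (r = 0.996), Ola1 (r = 0.994), Ddr2 (r = 0.993), Srpx (r = 0.992) and Pitpna (r = 0.992), with 548 genes above 0.9. Like Fgf10, these 5 were lowest in both replicate 3 libraries. Ddr2, a collagen receptor of mesenchymal cells, had 184, 126 and 81.9 CPM in control and 143, 161 and 75.3 CPM in AMD3100-treated eSMGs. Among the members, Fgf10 had r = 0.89 with Fgfr2 and r = -0.97 with Fgfr3.

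Fgfr1 followed another order of libraries. The genes most like it were Cxcl12 (r = 0.975), Med11 (r = 0.947), Rbmxl1 (r = 0.945), Ykt6 (r = 0.940) and Hes1 (r = 0.937), and only 9 genes had an r above 0.9. Cxcl12, the ligand of the receptor that AMD3100 blocks, had 115, 107 and 175 CPM in control and 98.1, 123 and 79.9 CPM in AMD3100-treated eSMGs. Both genes were highest in control replicate 3 and lowest in AMD3100 replicate 3, and the groups of both overlapped.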

How the data were processed

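Libraries were prepared by the authors from total RNA with a QuantSeq 3′ mRNA kit and sequenced as 50 bp single reads. The submitters' processing notes name Bowtie2, edgeR and mm10, and the counter, annotation and strand setting are not given in the sources used here. The authors deposited raw read counts per gene symbol, not normalized or filtered. Of 23282 lines per table, 22 were exact repeats of another line and were removed, none of them a member. The ribosomal RNA precursor Rn45s took 16.2% to 32.5% of the counts of a library.

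Groups and replicate numbers were taken from the sample labels. Counts were fitted with edgeR 4.0.16 in R 4.3.3 (TMM, filterByExpr on condition, glmQLFit, glmQLFTest, Benjamini-Hochberg adjustment over 13610 genes), with condition as the only term. The fit was also run on simulated data as a check of the code, and no result given here rests on that run. Standard errors were derived from the coefficient and its F, and the 95% intervals from the same fit. The replicate numbers in the labels recur in both groups. Across genes, the deviations of same-numbered libraries from their group means had correlations of 0.156, 0.147 and 0.549 for replicates 1 to 3, all above the 0.1 used as the limit for pairing. The crossed pairs of replicates 1 and 2 also passed this limit, with 0.132 and 0.167. For replicates 1 and 2 the limit thus could not tell same-numbered from crossed pairs, and pairing is not established. The block is given only as an alternative, beside results whose call it changed.

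As alternatives the counts were fitted with DESeq2 1.42.0, with upper quartile scaling, with limma-voom (limma 3.58.1) on quantile-normalized values, with all genes or with those that had at least 10 counts throughout, with the replicate block, with robust estimation, without Rn45s, with replicates 1 and 2 only, and without each library in turn. Ratios were tested with an exact permutation test over libraries. The members and the gene lists were chosen with earlier results of these data known. Named were all members, of each other list the genes with an unadjusted p under 0.05 and the 3 with the highest mean CPM, the 5 genes most like the leading ligand and receptor, and genes over a member's 3′ end. Genes that passed only with the block were named after their values were seen. So were Etv1, Hs6st1, Plcg1 and the genes given for replicate 3, and the sums without a leading gene were added then. Some genes of the signal relay list are not reported here, and its counts leave them out.

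Positions were those of the RefSeq table for GRCm38.p6, the same build as mm10. In GENCODE vM1 on NCBIM37, 11 windows of 50 bases from the 3′ end of each member were aligned with minimap2 2.31, and 0 of them matched elsewhere in the genome with at most 1 mismatch, while 2 of the windows of Fgf2 were not found in it.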

Additional observations from a re-analysis of the deposited data

How the results depend on the processing

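With an adjusted p under 0.05, edgeR called 0 genes, DESeq2 5 and the replicate block 3, none of them a member. The study's thresholds were passed by 228 genes, by 598 with the replicate block, by 613 with replicates 1 and 2 only and by 163 to 547 when each library was left out in turn. Members past them numbered 0, except for 1 (Fgfrl1) with replicates 1 and 2 only, and 0 to 1 with a library left out (Fgfrl1, without control replicate 3). The replicate block changed no member call. Of the other FGF pathway genes 2 passed, against 5 with DESeq2, 6 with the replicate block, 4 with replicates 1 and 2 only and 1 to 5 with a library left out, and this count was added once the data had been seen.

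The log2 fold change of Fgf18 turned from 0.02 to -0.038 with limma-voom, to -0.17 with the replicate block and to between -0.50 and 0.37 with a library left out, and that of Fgfr1 turned from -0.20 to 0.008 with replicates 1 and 2 only. With a library left out, values ranged from -0.87 to 0.46 for Fgf9, from -0.35 to 0.17 for Fgf10, from -0.43 to 0.10 for Fgfr2 and from -0.21 to 1.05 for Fgfr3. Fgf1, Fgf7 and Fgfrl1 kept their direction under all 15 alternatives, at 0.66 to 1.55, 0.23 to 0.61 and 0.19 to 0.85. The cause of these shifts was not tested. Fgf18, Fgf9 and Fgf1 had as few as 19, 25 and 27 counts in a library, and the part of depth was not tested either.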
